A study of Arabidopsis thaliana with 16 samples.

Results

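These are the 187 genes of Arabidopsis thaliana whose transcript level was at least 4 times that of wild-type Col in each of 3 engineered ethylene lines. They were chosen by the fold of line over Col in the authors' deposited tables: a log2 fold of at least 2 in all 3 tables, with Col above 0. Plastid and mitochondrial genes were left out by identifier, as were the identifiers AT2G07671 to AT2G07789, which belong to the inserted copy of mitochondrial DNA on chromosome 2. The 3 tables list 10057 genes in at least 1 comparison. After that, 9915 nuclear genes are left, of which the members are 1.89%. Because the folds chose the genes, all folds below are given as a description and nothing is tested with them.

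The study asked how a fusion of EIN2 with EIN3 acts in ethylene signalling, with RNA-seq of whole seedlings and with chromatin immunoprecipitation (ChIP-seq) by an EIN2 antibody. It has 16 samples: 6 RNA libraries of 3 lines, 6 ChIP libraries and 4 inputs. All seedlings were 3 days old, grew in the dark at 24 °C and then had 4 h of air or of air with 10 ppm ethylene. Every RNA library was treated with air.

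The first RNA line carried EIN2C-EIN3DB, which by its name joins the carboxyl-terminal part of EIN2 to the DNA-binding part of EIN3, in the ein3-1eil-1 background. The second carried EIN2C-EIN3DBK245N, the same fusion with the substitution K245N in the EIN3 part, and the third carried EIN2S645A, in the same background. All 3 lines thus share the loss of EIN3 and of its relative EIL1, and each is set against Col. No untransformed ein3-1eil-1 library is among the RNA samples, so the transgene and the double mutation cannot be told apart in any fold. The labels do not give the treatment of Col or its libraries, the promoter that drove the transgenes or the number of transformed lines. The third line is written with EIN2 in its titles, with EIN2C in the series design and as S6345A in its genotype field, and the titles are followed here. The ChIP libraries came from EIN2C-EIN3DB in ein3-1eil-1 with ethylene (2 libraries) and with air (2), and in Col-0 with ethylene (1) and air (1). By its agent field the Col-0 pair of ChIP and input that is titled air had ethylene, and by its genotype field the Col-0 ethylene input was ein3-1eil-1; here too the titles are followed.

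Ethylene is a plant hormone that dark-grown seedlings answer with a short, thick stem and a tight apical hook. When it is perceived, EIN2 is no longer phosphorylated by the kinase CTR1, its carboxyl-terminal part enters the nucleus, and the transcription factors EIN3 and EIL1 switch on most ethylene-responsive genes. Dark-grown seedlings lack green chloroplasts, and their light-harvesting genes are known to be held low until light arrives.

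In the authors' deposited tables EIL1 stood at log2 -2.86 in EIN2C-EIN3DB, -2.65 in EIN2C-EIN3DBK245N and -2.93 in EIN2S645A over Col. EIN3 stood at -2.06 in the first and -3.97 in the third of the authors' deposited tables and was not listed in the second. EIN2 was listed only for EIN2C-EIN3DB, at -1.44 in the authors' deposited table. These values do not separate the resident genes from the transgenes.

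The members' folds were mostly moderate, with a few very large ones. Their median log2 fold in the authors' deposited tables was 2.80 in EIN2C-EIN3DB (range 2.001 to 9.59), 2.70 in EIN2C-EIN3DBK245N (2.02 to 10.57) and 3.47 in EIN2S645A (2.06 to 12.58). A fold of at least 8 was reached by 78, 68 and 124 members in these tables, and a fold of at least 64 by 5, 6 and 9. The median level in the line was 53.5, 33.3 and 59.6 FPKM, and 12, 10 and 23 members had at least 1000 FPKM. FPKM is a fragment count scaled to transcript length and to the total of mapped fragments. The tables were scaled separately, so levels are not compared between them. Each line has 1 value pooled from 2 libraries, so no spread between replicates can be given, and the depth of the RNA libraries is unknown. Whole seedlings were sampled, so more cells of a type and more RNA per cell cannot be told apart.

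As the background of the rule, 12.8% of the genes listed for EIN2C-EIN3DB, 10.7% of those for EIN2C-EIN3DBK245N and 19.1% of those for EIN2S645A were at least 4-fold higher than Col in the authors' deposited tables. The rule used these contrasts, and nothing is read from the members' count against them. At the limit, AT2G16990 (lowest log2 2.001), AT5G01870 (2.002) and AT5G13240 (2.01) lay just inside in the authors' deposited tables. AT5G64400 (1.996), HIR2 (1.99) and ALG12 (1.98) lay just outside. Of the 187, 183 are protein-coding, 2 are non-coding RNAs, 1 is a transcribed pseudogene and 1 was not found in the gene table. The gene table gives a symbol for 93 of them, and the others are named by identifier only. Another 27 genes were listed at 0 in Col in all 3 tables and are left out by the rule.

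**Figure D1:**
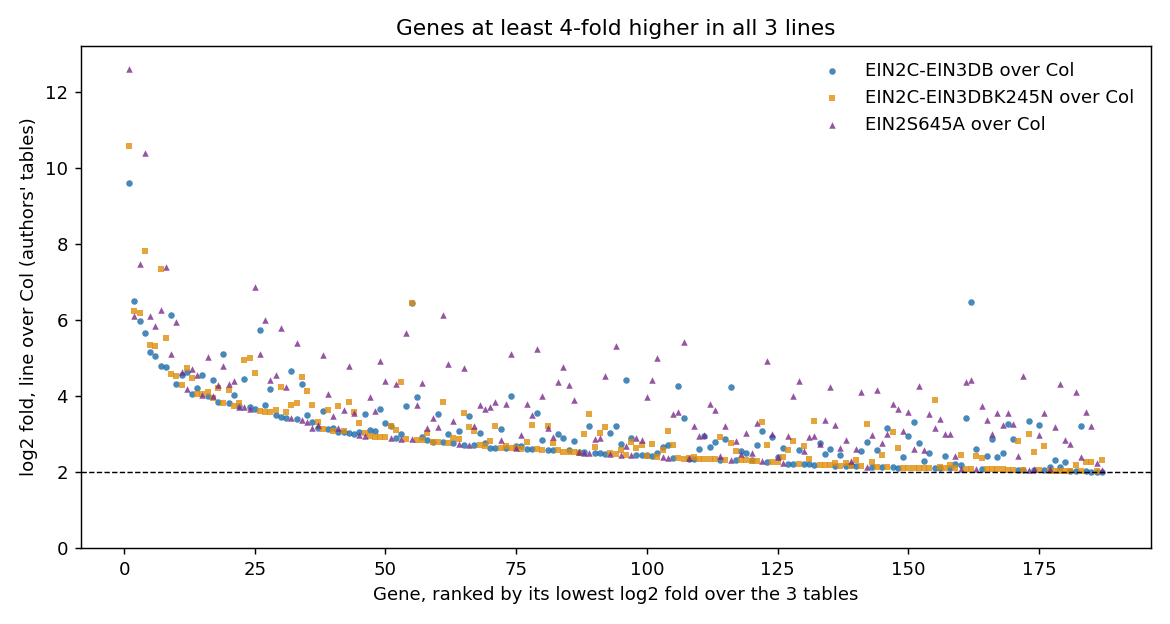
Log2 fold of each line over Col (vertical axis, from the authors' tables) for the 187 genes, ranked by their lowest fold over the 3 tables (horizontal axis). Circles are EIN2C-EIN3DB, squares EIN2C-EIN3DBK245N and triangles EIN2S645A, and the dashed line marks the 4-fold limit. The lowest fold lies under 8-fold for most genes, and the triangles are the highest of the 3 symbols for 123 of the 187.

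The largest fold in each of the authors' deposited tables belonged to a light-harvesting gene, LHB1B1. The other antenna genes did not follow directly in every line. In EIN2C-EIN3DB, KIN1 (log2 6.49), BGLU18 (6.44) and BGLU21 (6.12), described below, stood above LHB1B2 (5.97). In EIN2C-EIN3DBK245N, CAB2 (7.82) came next, but AT2G07811 (7.34), BGLU18 (6.44) and KIN1 (6.24) stood above LHB1B2 (6.18). LHB1B1, LHB1B2, CAB1, CAB2 and CAB3 encode the LHCB1 protein, the most abundant chlorophyll-binding antenna protein of photosystem II. LHCB2.1 and LHCB2.2 encode its partner in the same antenna, and LHCA1 an antenna protein of photosystem I. For LHB1B1 (chromosome 2, 14524756 to 14525763, TAIR10) the authors' deposited tables give 773 FPKM in EIN2C-EIN3DB, 1152 FPKM in EIN2C-EIN3DBK245N and 4777 FPKM in EIN2S645A. Their folds imply 1.00, 0.755 and 0.778 FPKM in Col, at log2 9.59, 10.57 and 12.58. It was near the lower edge of detection in Col and among the abundant transcripts of every line.

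Its neighbour LHB1B2 was already abundant in Col. It had 6776 FPKM in EIN2C-EIN3DB, 5884 FPKM in EIN2C-EIN3DBK245N and 14954 FPKM in EIN2S645A, against implied Col levels of 108, 81.3 and 83.8 FPKM, in the authors' deposited tables. Its log2 folds there were 5.97, 6.18 and 7.48. CAB1 had the highest Col level of the members, with 9574, 6919 and 13811 FPKM in the same order of lines against 1417, 1068 and 1101 FPKM implied for Col in the authors' deposited tables. Its log2 folds were the lowest or next to lowest of the group, at 2.76, 2.70 and 3.65. CAB2 stood at log2 5.66 in EIN2C-EIN3DB, 7.82 in EIN2C-EIN3DBK245N and 10.40 in EIN2S645A, with 55.4, 186 and 1144 FPKM, in the authors' deposited tables. CAB3 stood at 4.75, 5.53 and 7.40 with 486, 627 and 2367 FPKM there. In every table LHB1B1 had the lowest implied Col level of the 5 and the largest fold, and CAB1 the highest Col level and the smallest fold. The order did not hold throughout, since LHB1B2 had a larger fold than CAB3 at a higher Col level.

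LHCB2.2 stood at log2 3.65 in EIN2C-EIN3DB, 4.62 in EIN2C-EIN3DBK245N and 6.85 in EIN2S645A in the authors' deposited tables. LHCB2.1 stood at 2.78, 3.85 and 6.13 there, and LHCA1 at 2.64, 3.22 and 3.84. All 8 antenna members had their highest fold in EIN2S645A and 7 of them, all but CAB1, their lowest in EIN2C-EIN3DB.

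The LHCB1 and LHCB2 copies are near-identical, so reads can be split wrongly among them and single values are uncertain. Summed over the 5 LHCB1 copies, the authors' deposited tables give 17665 FPKM in EIN2C-EIN3DB against an implied 1545 FPKM in Col (log2 3.52). They give 14768 against 1164 FPKM for EIN2C-EIN3DBK245N (3.67) and 37054 against 1200 FPKM for EIN2S645A (4.95). The sum moved far less than LHB1B1 or CAB2, but stayed over 8-fold in every line. The pair of LHCB2 members summed to log2 3.10, 4.12 and 6.38 in the same tables. LHCB2.3, a further LHCB2 gene, is no member and is left out of that sum. It was not listed for EIN2C-EIN3DB. Its log2 fold was 1.43 at 80.3 FPKM in EIN2C-EIN3DBK245N and 2.85 at 222 FPKM in EIN2S645A, so the sum holds only the copies with the larger folds. CAB1 takes the largest share of the LHCB1 sum in the first and second line and LHB1B2 in the third.

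**Figure D2:**
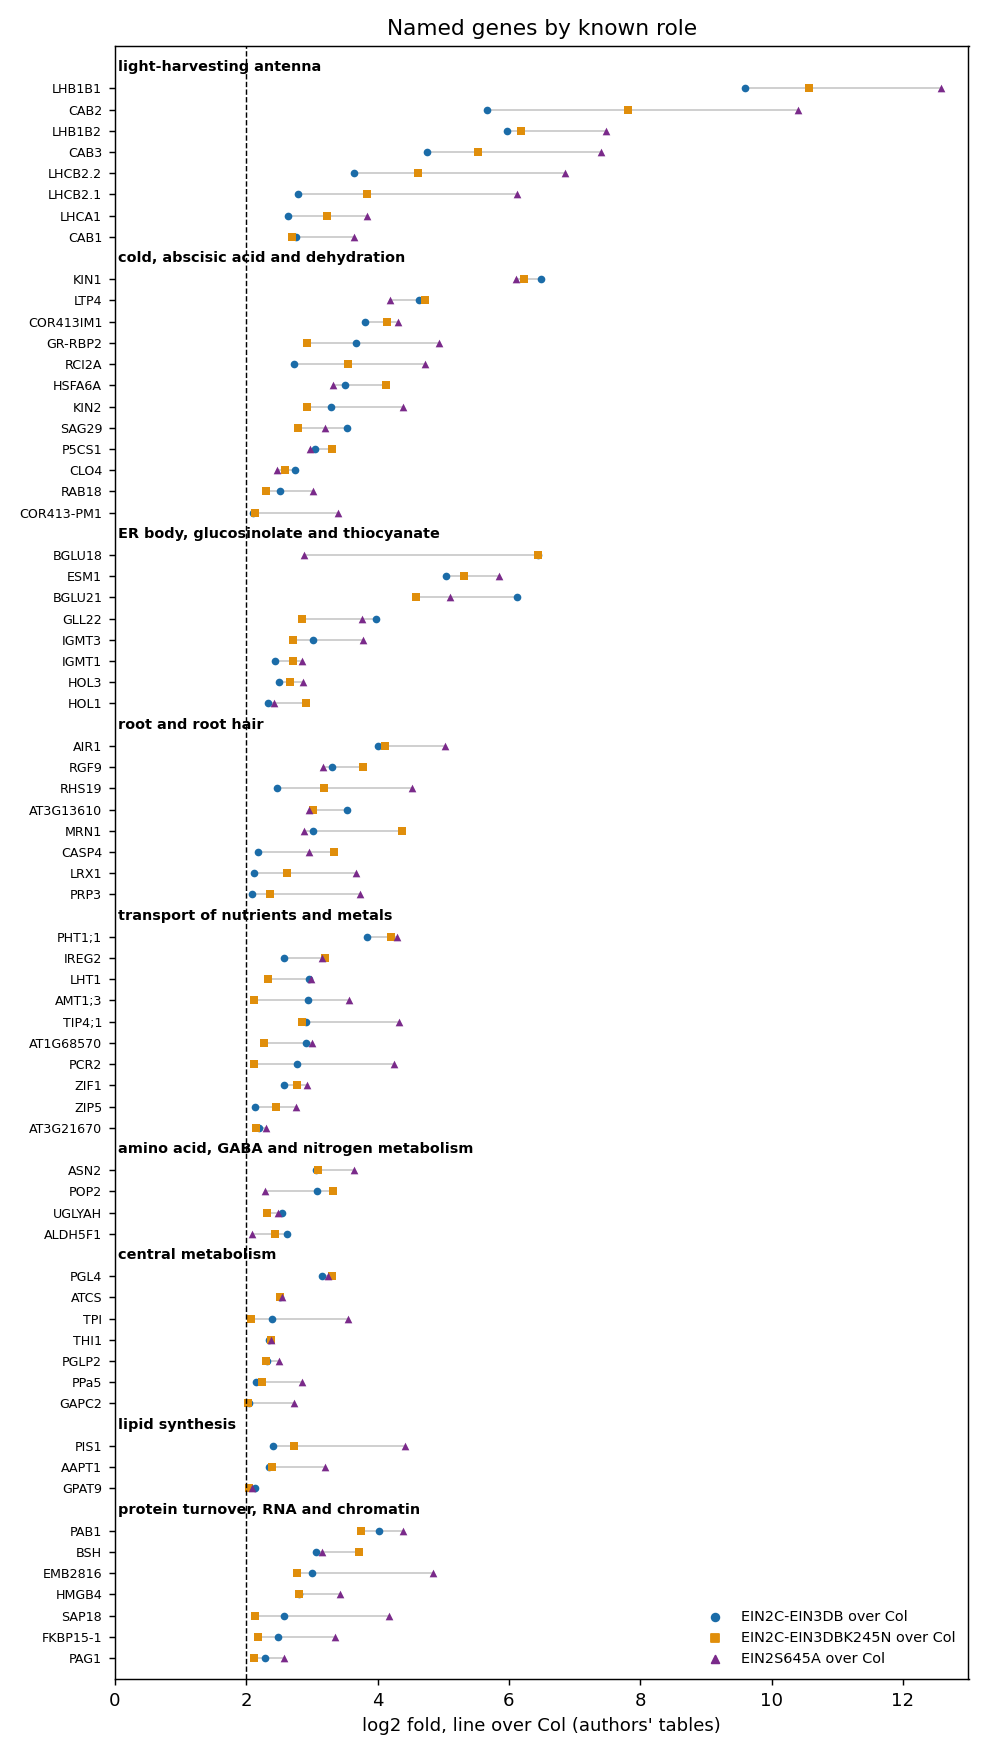
Log2 fold over Col in the authors' tables (horizontal axis) for 67 members with a known role, grouped by role. Circles are EIN2C-EIN3DB, squares EIN2C-EIN3DBK245N and triangles EIN2S645A, with a grey line over the span of the 3 and a dashed line at 4-fold. The light-harvesting gene LHB1B1 has the largest fold of each line, 12.58 in EIN2S645A. The triangles lie right of the other symbols in all 8 light-harvesting genes, while the 7 genes of central metabolism lie between 2.03 and 3.55.

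Other antenna genes missed the rule. The antenna list has 23 genes, of which 8 were members. By the tables that the authors deposited, 13 of its genes were higher and 2 lower in EIN2C-EIN3DB, 15 higher and 2 lower in EIN2C-EIN3DBK245N, and 19 higher and 0 lower in EIN2S645A. The median log2 of its listed genes was 2.64, 2.49 and 3.22, beside -1.01, -1.01 and -1.09 over all genes listed in each table. The tables hold no gene within 2-fold of Col, so these overall medians are not the fold of a typical gene. Over the listed higher genes alone the median was 1.55, 1.48 and 1.85. As background for this and the other lists, 49.6%, 49.1% and 45.8% of all listed genes were higher than Col in the authors' deposited tables and 50.4%, 50.9% and 54.2% lower. LHCB3, another subunit of the photosystem II antenna, stood at 1.68, 2.29 and 3.22 in the authors' deposited tables. LHCA4, of the photosystem I antenna, stood at 1.85, 2.13 and 3.32 there, so both missed the rule through EIN2C-EIN3DB alone.

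Genes of the photosystem cores and of Rubisco, the carbon-fixing enzyme, held no member among 30. By the tables that the authors deposited, 1 was higher and 7 lower in EIN2C-EIN3DB, 4 higher and 4 lower in EIN2C-EIN3DBK245N, and 15 higher and 0 lower in EIN2S645A, where 10 reached 4-fold. Chlorophyll synthesis genes held none among 17, and 0 were higher in any line, with 9, 10 and 10 lower. Antenna genes thus stood high in all 3 lines beside chlorophyll synthesis genes that stood low. These lists also mark green tissue, and the part that a different amount of such tissue plays was not tested.

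Cold- and drought-responsive genes also included members with large folds. KIN1 and KIN2 encode small hydrophilic proteins induced by cold and by the hormone abscisic acid. KIN1 (chromosome 5, 5209898 to 5210727) had 677 FPKM in EIN2C-EIN3DB, 428 FPKM in EIN2C-EIN3DBK245N and 405 FPKM in EIN2S645A, against 7.53, 5.67 and 5.85 FPKM implied for Col, in the authors' deposited tables. Its log2 folds of 6.49, 6.24 and 6.11 differed by less than 0.5 between lines. KIN2, next to it on the chromosome, had 2174, 1268 and 3615 FPKM at log2 3.29, 2.92 and 4.39 in the authors' deposited tables. The 2 genes are near-identical too, and their sums stood at log2 3.64, 3.29 and 4.50.

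Several membrane proteins of cold acclimation were members. COR413IM1, of the inner chloroplast envelope, stood at log2 3.81 in EIN2C-EIN3DB, 4.15 in EIN2C-EIN3DBK245N and 4.31 in EIN2S645A in the authors' deposited tables. COR413-PM1, its relative in the plasma membrane, stood at 2.102, 2.13 and 3.39 there. RCI2A, which encodes a very small hydrophobic membrane protein, had 3124, 4180 and 9748 FPKM at log2 2.72, 3.55 and 4.73 in the authors' deposited tables. Of 23 cold-regulated genes, 4 were members, namely KIN1, KIN2, COR413IM1 and COR413-PM1. Higher and lower genes of that list numbered 13 and 1, 8 and 1, and 10 and 1 in the authors' deposited tables in the order of lines. Its median log2 was 1.77, 2.13 and 1.93. COR15A, a classical cold-induced gene, was listed only in EIN2C-EIN3DB, at 6.10 in the authors' deposited table, and is no member.

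Of 23 abscisic acid and dehydration genes, 3 were members: KIN2, P5CS1 and RAB18. P5CS1, the rate-limiting enzyme of proline synthesis, stood at log2 3.05 in EIN2C-EIN3DB, 3.30 in EIN2C-EIN3DBK245N and 2.97 in EIN2S645A in the authors' deposited tables. RAB18, a dehydrin, had 437, 286 and 482 FPKM at 2.51, 2.31 and 3.02 there. Higher and lower genes of this list numbered 10 and 0, 12 and 0, and 9 and 3 in those tables. LEA4-5, another protein of dehydrating tissue, stood at 3.26, 1.93 and 2.70 in the authors' deposited tables and missed the rule in the second. Outside these lists, the lipid transfer gene LTP4 stood at 4.63, 4.73 and 4.20, the heat shock factor gene HSFA6A at 3.50, 4.14 and 3.32, and the sugar transporter gene SAG29 at 3.54, 2.79 and 3.19 in the authors' deposited tables. Members of this group were split over the lines: 3 had their highest fold in EIN2C-EIN3DB, 3 in EIN2C-EIN3DBK245N and 6 in EIN2S645A.

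Another group of 8 members acts on stored glycosides and their breakdown products. BGLU18 encodes a beta-glucosidase of endoplasmic reticulum bodies that frees abscisic acid from its glucose ester. It stood at log2 6.44 in EIN2C-EIN3DB and 6.44 in EIN2C-EIN3DBK245N, but at 2.88 in EIN2S645A, with 32.1, 24.3 and 2.11 FPKM, in the authors' deposited tables. That gap of more than 3 log2 units is the widest among members in which EIN2S645A has the lowest fold. Its implied Col level, 0.279 to 0.370 FPKM, is very low. BGLU21, a root beta-glucosidase that acts on scopolin, stood at 6.12, 4.59 and 5.11 there. ESM1, which steers glucosinolate breakdown towards isothiocyanates, stood at 5.04, 5.32 and 5.85, against 1.11, 0.833 and 0.859 FPKM implied for Col, in the authors' deposited tables. IGMT1, IGMT3, HOL1, HOL3 and GLL22 are of the same field and lay between 2.33 and 3.98 in all 3 tables. IGMT1 and IGMT3 methylate indole glucosinolates, and HOL1 methylates thiocyanate and halides. BGLU18 and BGLU21 were the sole members among 19 endoplasmic reticulum body genes, of which 5 were higher and 2 lower, 4 higher and 0 lower, and 4 higher and 3 lower in the authors' deposited tables. PYK10, the main beta-glucosidase of these bodies, was listed only for EIN2S645A, at log2 -1.26 in the authors' deposited table. ESM1 was the sole member among 28 glucosinolate genes, of which 4 were higher and 2 lower, 5 higher and 1 lower, and 2 higher and 5 lower in the authors' deposited tables. Their median log2 there was 1.78, 1.31 and -1.63, so most listed glucosinolate genes stood below Col in EIN2S645A.

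Root genes were members as well. LRX1, an extensin of the root hair wall, had 2.30, 2.46 and 5.24 FPKM at log2 2.12 in EIN2C-EIN3DB, 2.63 in EIN2C-EIN3DBK245N and 3.67 in EIN2S645A in the authors' deposited tables. PRP3, a proline-rich wall protein of root hairs, stood at 2.08, 2.37 and 3.73, and RHS19, a root hair peroxidase, at 2.48, 3.18 and 4.53 in the authors' deposited tables. These 3 of 27 root hair genes were at low levels, and each had its highest fold in EIN2S645A. In EIN2C-EIN3DB all 3 were under 22.2 FPKM, the lower quartile of the members, and in EIN2C-EIN3DBK245N LRX1 had the lowest level of all members. Across that list 7 were higher and 1 lower, 3 higher and 1 lower, and 6 higher and 2 lower in the authors' deposited tables. The expansin genes EXPA7 and EXPA18 and the regulator RHD6 were listed only for EIN2C-EIN3DB. The root hair list marks root hair cells, whose amount was not measured, and its part in these values was not tested.

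AIR1 (2221, 1805 and 3497 FPKM), which responds to auxin in roots, stood at log2 4.01 in EIN2C-EIN3DB, 4.12 in EIN2C-EIN3DBK245N and 5.03 in EIN2S645A in the authors' deposited tables. CASP4, a protein of the Casparian strip of the endodermis, stood at 2.19, 3.34 and 2.96 there. MRN1, the marneral synthase of triterpene metabolism, stood at 3.01, 4.37 and 2.88, and the peptide hormone gene RGF9 at 3.31, 3.78 and 3.16 in the authors' deposited tables. F6'H1 (AT3G13610), which makes the coumarin scopoletin, stood at 3.53, 3.02 and 2.96 there. CASP4, MRN1 and RGF9 had their highest fold in EIN2C-EIN3DBK245N, unlike the root hair genes.

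Transporters of nutrients and metals made up 10 members. PHT1;1, a root phosphate uptake carrier, had 64.2, 62.8 and 68.8 FPKM at log2 3.83 in EIN2C-EIN3DB, 4.21 in EIN2C-EIN3DBK245N and 4.30 in EIN2S645A in the authors' deposited tables. It was the sole member among 23 nitrate, phosphate and sulphate genes. Higher and lower genes of that list numbered 8 and 1, 5 and 1, and 6 and 2 there. The ammonium transporter AMT1;3 stood at 2.95, 2.12 and 3.57, the amino acid transporter LHT1 at 2.96, 2.34 and 2.98, and the aquaporin TIP4;1 at 2.91, 2.85 and 4.33 in the authors' deposited tables. ZIF1, ZIP5, IREG2 and PCR2 move zinc, nickel or other metals and lay between 2.12 and 4.25 in those tables. Except for IREG2, every gene of this group had its highest fold in EIN2S645A. The iron and metal uptake list, which holds other genes, had no member among 31, although 9, 9 and 9 of its genes were higher.

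Further members belong to nitrogen, central and lipid metabolism. POP2 and ALDH5F1 catalyse successive steps of the breakdown of gamma-aminobutyrate. POP2 stood at log2 3.08 in EIN2C-EIN3DB, 3.32 in EIN2C-EIN3DBK245N and 2.29 in EIN2S645A in the authors' deposited tables, and ALDH5F1 at 2.61, 2.43 and 2.09. Both had their lowest fold in EIN2S645A, where most members had their highest. The asparagine synthetase gene ASN2 stood at 3.06, 3.09 and 3.64 in the authors' deposited tables, and UGLYAH, of purine breakdown, at 2.55, 2.31 and 2.49. In central metabolism, the citrate synthase gene ATCS had almost the same fold in each table, 2.52, 2.51 and 2.54. The thiazole synthase gene THI1 stood at 2.35, 2.38 and 2.38 there, with 394, 304 and 312 FPKM. The glycolytic genes TPI and GAPC2 stood at 2.39, 2.07 and 3.55 and at 2.04, 2.03 and 2.73 in the authors' deposited tables. Phospholipid and glycerolipid synthesis was represented by PIS1 (2.41, 2.73 and 4.42), AAPT1 (2.35, 2.39 and 3.20) and GPAT9 (2.14, 2.04 and 2.09).

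Genes of protein turnover, RNA and chromatin included the proteasome subunit genes PAB1 and PAG1. PAB1 stood at log2 4.03 in EIN2C-EIN3DB, 3.75 in EIN2C-EIN3DBK245N and 4.39 in EIN2S645A in the authors' deposited tables, and PAG1 at 2.28, 2.12 and 2.58. BSH, a subunit of SWI/SNF chromatin remodelling complexes, stood at 3.06, 3.72 and 3.15 there. HMGB4, a high mobility group DNA-binding protein, stood at 2.80, 2.80 and 3.44, and SAP18, which joins histone deacetylase complexes, at 2.57, 2.13 and 4.17 in the authors' deposited tables. Of the 7 genes in this group 6 had their highest fold in EIN2S645A.

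Among the 25 members with the largest lowest fold, 10 have no symbol in the gene table. The most abundant is the non-coding RNA AT1G15405, with 3421, 3444 and 4156 FPKM at log2 4.06 in EIN2C-EIN3DB, 4.48 in EIN2C-EIN3DBK245N and 4.71 in EIN2S645A in the authors' deposited tables. AT5G46890 stood at 4.30, 4.53 and 5.95, AT1G23720 at 4.55, 4.28 and 4.63, and AT2G43610 at 5.09, 3.82 and 4.78 there. AT2G04170, AT3G01190, AT2G17280, AT1G06090 and AT4G28780 lay between 3.71 and 4.96 in all 3 tables. AT2G07811 (4.79, 7.34 and 6.25 in the authors' deposited tables) is the transcribed pseudogene. By position (chromosome 2, 3313598 to 3314901) it lies inside the stretch of the loci that were left out, 3239657 to 3503476, and it is a member only because its identifier is outside the range. Since that DNA has a near-identical copy in the mitochondrion, its values are uncertain. ELI3-1, an elicitor-activated alcohol dehydrogenase, stood at 5.16, 5.33 and 6.11, and the sterol desaturase gene CYP710A4 at 3.72, 4.996 and 3.66 in the authors' deposited tables. Also on a list was YLS9, a gene of pathogen response, at 2.49, 2.07 and 3.25. The loci of 30 members meet another gene of the gene table. The use of strand in the counting is not stated in the labels or headers, so reads of such genes cannot be told apart.

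Several lists had no member, but at 1.89% of listed genes a list of this size would be at or near 0, so nothing is read from their lack. Ethylene perception and signalling genes had 0 of 25, and by the tables that the authors deposited, 0 were higher in any line and 15, 14 and 14 lower. Auxin response (0 of 37), light signalling (0 of 26), the circadian clock (0 of 18), cell wall expansion (0 of 30), jasmonate and wounding (0 of 31), flavonoid and anthocyanin (0 of 17) and seed storage (0 of 15) genes had none either. Seed storage genes are markers of seed tissue, and 3, 5 and 6 of them were higher in the authors' deposited tables, against 2, 1 and 1 lower. Carbon starvation genes had 1 member of 22 (SAG29) and salicylate defence genes 2 of 28 (YLS9 and LTP4). In all, 24 members were on at least 1 of the 20 lists, which together hold 487 genes.

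**Figure D3:**
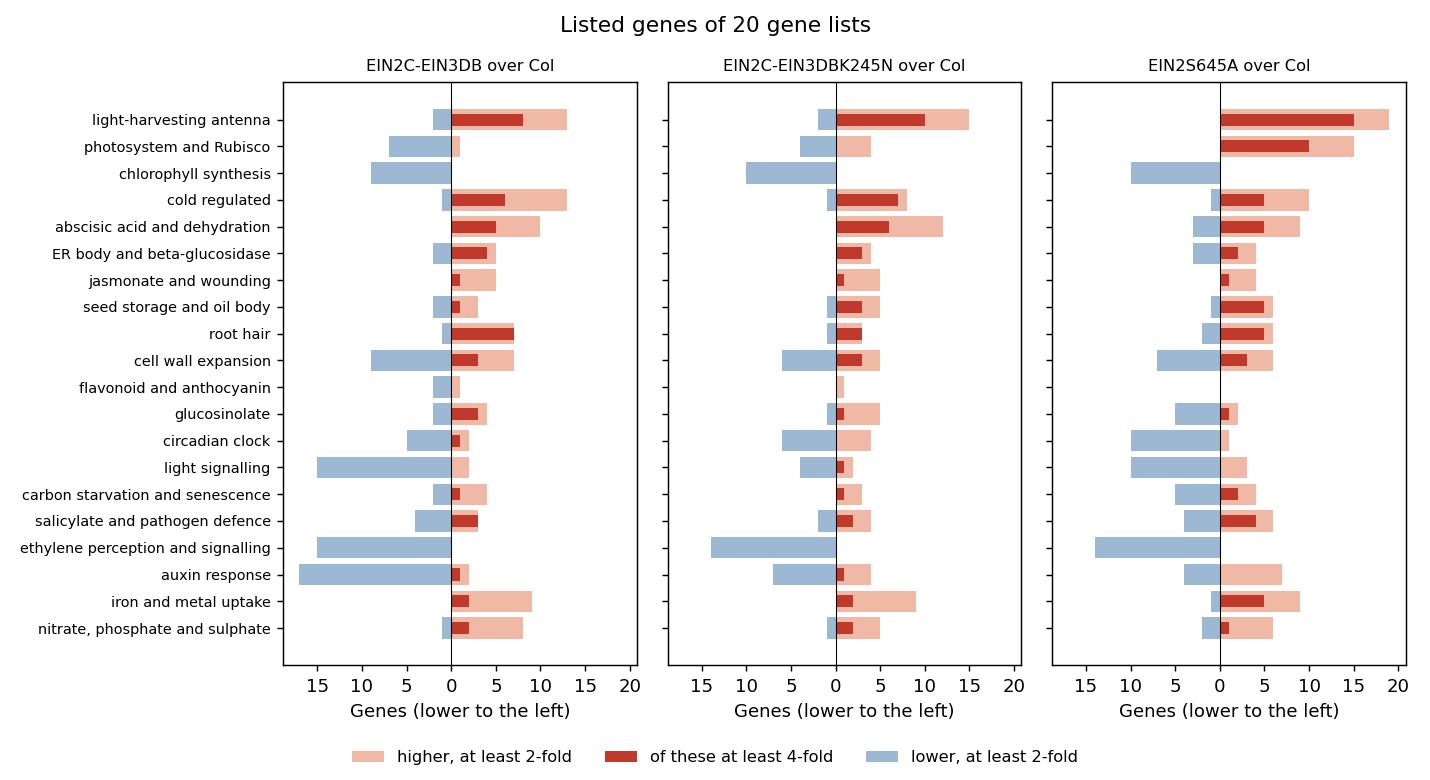
Genes of 20 lists (rows) that are higher (right, light red, with the part at least 4-fold higher in dark red) or lower (left, blue) than Col in the authors' tables, as numbers of genes on the horizontal axis, with 1 panel per line. Antenna genes are mostly higher in each panel (13, 15 and 19), photosystem and Rubisco genes only in EIN2S645A (15), and ethylene genes are lower in each (15, 14 and 14).

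The 3 lines differed in how far the members were raised. For 123 members (65.8%) the fold was highest in EIN2S645A, for 34 in EIN2C-EIN3DB and for 30 in EIN2C-EIN3DBK245N, by the authors' deposited tables. The 3 comparisons share Col, so these are values side by side and not independent results. The fold was also highest in EIN2S645A in 513 (70.4%) of the other 729 genes that were 2-fold higher in all 3 tables. A highest fold in that line is thus not particular to the members. The median span of the 3 folds was 1.03 log2 units, 91 members lay within 1 unit, and 32 spanned over 2. CAB2 spanned the most, 4.73 units. AT1G68250 spanned nearly as much in another order, at 6.48 in EIN2C-EIN3DB, 2.09 in EIN2C-EIN3DBK245N and 4.42 in EIN2S645A in the authors' deposited tables.

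Dropping a line from the rule shows which table set the membership. EIN2C-EIN3DBK245N has the shortest table, with 3604 listed genes outside the left-out identifiers, 387 of them at least 4-fold higher. The numbers were 5552 and 710 for EIN2C-EIN3DB and 7237 and 1382 for EIN2S645A. EIN2C-EIN3DBK245N was also the most limiting: without it, 378 genes were at least 4-fold higher in the remaining tables. Of these, 191 were no members, with 112 listed higher at under 4-fold and 79 not listed in its deposited table. Without EIN2S645A the number was 266, of which 79 were no members, 54 of them not listed for EIN2S645A. Without EIN2C-EIN3DB it was 252, with 65 non-members, of which 49 were listed higher at under 4-fold.

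The members were short genes. Their median locus length was 1672 bp, against 2390 bp over the 9915 listed nuclear genes, and 20.3% were shorter than 1000 bp, against 11.7%. Genes at least 4-fold higher in single tables were short as well, with medians of 1753.5, 1982 and 1472 bp in the order of lines. The gap between EIN2S645A and EIN2C-EIN3DB ran with length. Its median was 0.92 log2 units in the 38 members under 1000 bp, 0.81 in the 77 between 1000 and 2000 bp and 0.34 in the 72 over 2000 bp, by the authors' deposited tables. Among the other genes that were 2-fold higher in all 3 tables it was 1.31 for loci under 1000 bp and 0.24 for those over 2000 bp. A locus here is the stretch in the deposited table, which can span overlapping genes, and the part of length in these folds was not tested.

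**Figure D4:**
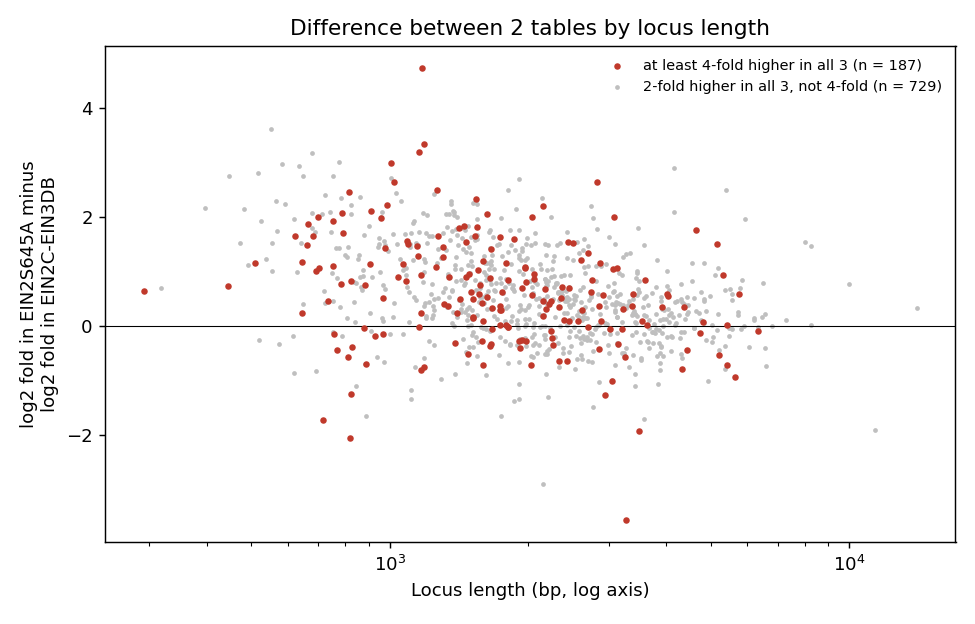
Log2 fold in EIN2S645A minus log2 fold in EIN2C-EIN3DB, both over Col and from the authors' tables (vertical axis), against locus length in bp (horizontal log axis). Red points are the 187 members and grey points the 729 other genes that are 2-fold higher in all 3 lines. Points of short loci lie higher, with medians of 0.92 for members under 1000 bp and 0.34 for members over 2000 bp.

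Some members lie side by side. Of protein-coding genes at least 4-fold higher in single tables, 11.6% of 697, 8.66% of 381 and 14% of 1349 had a direct neighbour in the same set. Over all 9611 listed protein-coding nuclear genes it was 61.1%. The share depends on the size of the set, so shares of sets of different size are not compared. Of the 183 protein-coding members, 17 (9.29%) formed 9 pairs of direct neighbours. They were the antenna genes CAB3, CAB2 and CAB1 in a row on chromosome 1 (10472280 to 10479048), LHCB2.2 with LHCB2.1, LHB1B2 with LHB1B1, KIN1 with KIN2, IGMT1 with IGMT3, AIR1 with AT4G12545, AT4G13615 with AT4G13620, and CKX4 with AT4G29735. Most of these are tandem copies that can share reads. CKX4, which breaks down cytokinin, and AT4G29735 had different orders of lines, 2.11, 3.90 and 3.15 against 2.60, 2.18 and 4.23 in the authors' deposited tables.

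ChIP-seq by the EIN2 antibody is a measure that the rule did not use. The antibody can also see resident EIN2. By the authors' peak lists, the 4 ein3-1eil-1 libraries kept 6205149 to 10515608 tags and had at most 275 peaks each. The Col-0 libraries kept 4713282 tags with ethylene and 3743192 with air and had 1510 and 841 peaks. The redundant share of tags was 0.20 to 0.30 in ein3-1eil-1 and 0.56 to 0.61 in Col-0. The ein3-1eil-1 libraries thus had more tags, fewer duplicates and fewer peaks.

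A peak in the locus or within 1000 bp of it was counted as a peak at the gene. In ein3-1eil-1, regions found in both replicates lay at 0 members with ethylene and at 1 member (0.535%) with air, beside 0.171% and 0.313% of the listed nuclear genes. The single ein3-1eil-1 libraries had a peak at 1 and 1 member with ethylene, beside 0.504% and 0.716% of listed genes, and at 2 and 1 with air, beside 0.908% and 0.978%. With ethylene these were CAB1 (fold enrichment 3.31 in the authors' list) in replicate 1 and AT3G05760 (2.49) in replicate 2. With air they were CCL in both and P5CS1 (2.28) in replicate 1. The AT3G05760 and P5CS1 peaks had a low -log10 q in the authors' lists, 0.32 and 0.34. In Col-0, 13 members (6.95%) had a peak with ethylene and 16 (8.56%) with air. Over the listed nuclear genes the Col-0 shares were 6.94% and 4.35%. The members' share was thus at the background with ethylene, and above it with air. These counts depend on the peak limits. With a -log10 q of at least 5 they were 1 member with ethylene and 4 with air, beside 1.84% and 0.625% of the listed genes. With peaks that overlap the locus they were 7 and 13, beside 4.02% and 2.65%. In ein3-1eil-1 the stricter q left 0 members with ethylene and 0 with air, beside 0.0807% and 0.0605%, and overlap with the locus gave 0 and 1, beside 0.131% and 0.232%. With 1 Col-0 library per treatment there is no replicate spread for either value. Air and ethylene follow the titles here, while the agent field of the Col-0 library titled air says ethylene.

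The antenna genes make up much of the Col-0 count in air. With ethylene, 2 of the 8 antenna members had a peak, and with air 6. All of these but LHCA1 are LHCB1 copies. They are near-identical, so ChIP tags can be placed wrongly among them as well, and their peaks may not be separate. Of the 179 members off the antenna list 11 (6.15%) had a peak with ethylene and 10 (5.59%) with air. Antenna genes that are no members had peaks at 1 of 13 with ethylene and at 8 of 13 with air, so the peaks in air are not particular to the members. At CAB1 a peak of 131 bp lay inside the gene with ethylene (chromosome 1, 10478405 to 10478535, TAIR10), with a fold enrichment of 3.39 in the authors' peak list. With air a peak covered most of the gene (10478086 to 10478956), with a pileup of 38 tags and a fold enrichment of 3.95. Among antenna members the strongest peaks in air by fold enrichment were at CAB2 (10475020 to 10475103, 5.14, rank 23 of 841) and LHB1B2 (14522606 to 14523130, 5.002, rank 26) in the authors' list. Both lay inside the locus. LHCA4, which is no member, had a stronger one (5.42, rank 18 in the authors' list). LHB1B1, CAB3 and LHCA1 had peaks inside their loci in air as well, with fold enrichments of 4.22, 3.60 and 3.65.

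Peaks went with transcript level. Of the 63 members with at least 100 FPKM in EIN2C-EIN3DB, 10 (15.9%) had a peak in Col-0 with ethylene and 12 (19%) with air, against 93 (14.8%) and 73 (11.6%) of all 629 genes of that table at such a level. Below 100 FPKM it was 3 (2.42%) and 4 (3.23%) of 124 members, against 300 (6.09%) and 182 (3.70%) of 4923 genes of that table. The part of transcript level in the peaks was not tested, and RNA and Col-0 ChIP come from different backgrounds.

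CCL, a short-lived transcript under clock control, was the member with peaks in the most libraries. Its log2 folds in the authors' deposited tables were 2.68 in EIN2C-EIN3DB, 2.62 in EIN2C-EIN3DBK245N and 2.64 in EIN2S645A, among the most even of all members. In ein3-1eil-1 air, replicate 1 had peaks at 9828260 to 9828405 and 9828501 to 9828653 on chromosome 3 and replicate 2 at 9828503 to 9828590, with fold enrichments of 1.92 to 2.30. The authors' -log10 q for these peaks was low, 0.03 to 0.91. In Col-0 with ethylene a peak covered 9828246 to 9828743 with a fold enrichment of 4.52 and a -log10 q of 6.76. In Col-0 air, peaks lay at 9828103 to 9828319, 9828548 to 9828637 and 9828893 to 9829011, with fold enrichments of 3.01 to 4.59. Other members with a peak in both Col-0 treatments were CAB1, LHB1B2, COR413IM1, RCI2A and THI1. The COR413IM1 peak in air and the THI1 peak with ethylene had a low -log10 q in the authors' lists, 0.36 and 0.87.

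Col-0 with ethylene gave peaks at several members that had none in air. BT1, a BTB and TAZ domain protein, had 3 of them, the strongest at 25333655 to 25333773 on chromosome 5 (fold enrichment 3.51). ZIF1 had one 959 bp from its locus (3.12), and TPI, HOL1, AT3G02480, AT3G19030 and AT2G25260 had peaks with fold enrichments of 2.37 to 2.96. In air alone, peaks lay at the antenna genes CAB2, CAB3, LHB1B1 and LHCA1, whose fold enrichments are given above. Further peaks in air alone lay at KIN2 (2.88), ENODL2 (3.20), UGLYAH (3.34), GPAT9 (3.03), AT4G13615 (3.11) and AAPT1 (2.64). The AAPT1 peak had a low -log10 q of 0.52 in the authors' list. Whether a peak is absent or missed cannot be told from 1 library per treatment at these depths.

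**Figure D5:**
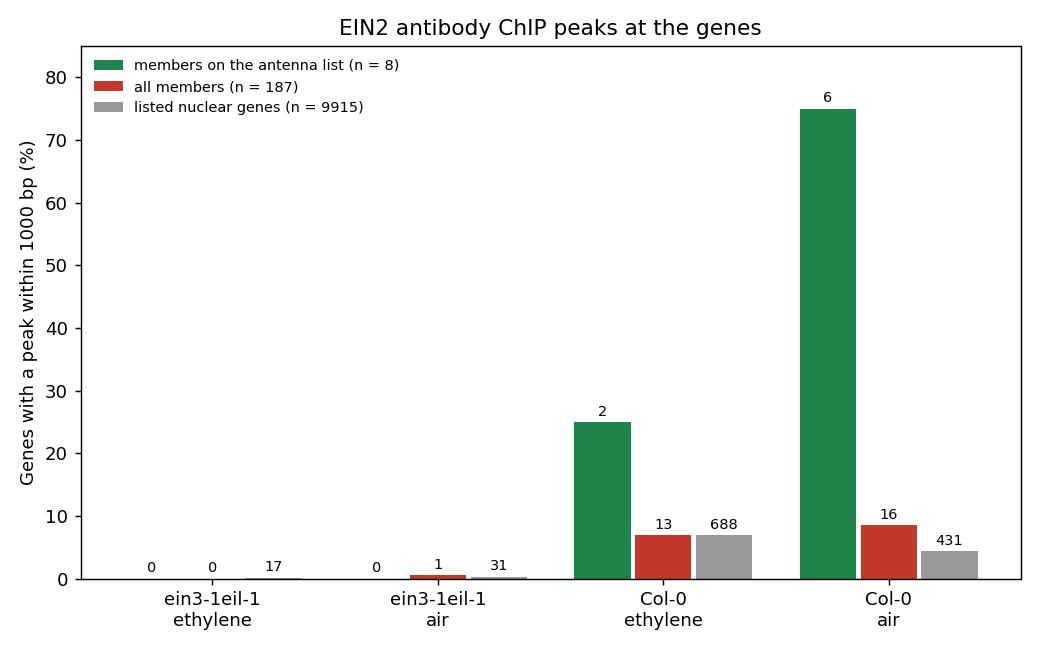
Share of genes with an EIN2 antibody ChIP peak in the locus or within 1000 bp (vertical axis, %) for the 8 antenna members (green), all 187 members (red) and the 9915 listed nuclear genes (grey), in each background and treatment, with the number of genes above each bar. Bars for ein3-1eil-1 count regions found in both replicates. The antenna members stand at 25% in Col-0 ethylene and 75% in Col-0 air, and the members as a whole at 6.95% and 8.56%.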

How the data were processed

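Levels are FPKM values, computed by the authors with Cuffdiff 2.2.1 against TAIR10 according to the submitters' processing notes, with 2 libraries pooled to 1 value per line. Per the file headers, each deposited table adds log2 folds, p-values and q-values. Going by names and values, a gene is in a table if it changed 2-fold or more, reached 1 FPKM and had a q-value below 0.05, and the smallest p-value there is 5e-05. No source used here names the RNA aligner or says what BWA, also in those notes, was used for. The samples hold no Col library, so the 3 Col value columns were not used. The rule was read from the fold column, and an implied Col level is a line's FPKM divided by its fold. Folds of the EIN2C-EIN3DBK245N table, deposited as Col over line, were reversed.

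MACS2 2.1.0.20150603 called peaks in single libraries at a p of 0.001, per the file headers, with 1 input for both ein3-1eil-1 replicates of a treatment. For each peak the authors' lists have the pileup (signal), the fold enrichment (ratio to input) and -log10 p and q. Regions are whole peaks of replicate 1 that overlap a peak of replicate 2 by at least 1 bp. The description of the second ein3-1eil-1 air replicate names the first one's file, so these files were mapped to their group only, replicate numbers follow the file names, and their pileup and -log10 p were not used. Coordinates are those of the files (TAIR10), 1-based.

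Members and the 20 gene lists were chosen with earlier results of these data known, and role groups after the values were seen. Named genes are the 25 with the largest lowest fold, all list members, all with a Col-0 peak or an ein3-1eil-1 region, and the 3 on either side of the limit. Further members with a known role, the members in neighbouring pairs and the list genes that are no members were picked after their values were seen. No test was run, since no values per library were at hand. The rule was checked on made-up data, and the peak placement was not. Gene names came from a RefSeq table (TAIR10.1) that holds 186 of the 187 members, and 521 of 544 list entries matched 1 gene. The peak background is the listed nuclear genes with the loci of the files, where all protein-coding genes had been planned. Python 3.11.15, pandas 2.3.3, numpy 2.4.6 and matplotlib 3.10.9 were used.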

Additional observations from a re-analysis of the deposited data

How the results depend on the processing

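The rule gave 187 genes, 916 at a fold of at least 2 and 43 at a fold of at least 8. Centring each table on its median listed gene also gave 916, by construction, since the tables hold no gene within 2-fold of Col and their log2 medians are -1.01, -1.01 and -1.09. It moved the lowest folds of AT2G16990, AT5G01870 and AT5G13240 to 3.01, 3.01 and 3.02. A line level of at least 5 or 10 FPKM left 179 and 152 genes, and an implied Col level of at least 1 FPKM, chosen after seeing the data like the two-table rule, left 165. Without the EIN2C-EIN3DBK245N table the rule gave 378, without the others 252 and 266. Members on lists numbered 24, and 56 at 2-fold. Peaks with a -log10 q of at least 5 lay at 0 members in ein3-1eil-1 air (1 with all peaks), 1 in Col-0 ethylene (13) and 4 in Col-0 air (16). A peak overlapping the locus was found at 7 members in Col-0 ethylene and 13 in Col-0 air. With 1 ein3-1eil-1 replicate alone the number was 1 in ethylene and 1 to 2 in air. Within 2000 bp it was 16 in Col-0 ethylene and 20 in Col-0 air. The cause of these differences was not tested. Promoter letters and their strand alternative were not run. No paired analysis was possible because the RNA tables hold 1 pooled value per line and no result comes from a test. RNA depth is unknown, and 1 Col-0 ChIP library per treatment limits the peak counts.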
